A study of Mus musculus with 12 samples.

Results

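The apex of the newborn mouse cochlea was compared with its base at postnatal day 0 (P0). The comparison rests on 4 of the 12 arrays of the series, chosen by their titles: 2 of P0 apex and 2 of P0 base. A year tag in the titles was read as the dissection set, with 1 array of each group from a first and 1 from a second set. All mice were wild-type C57BL/6 pups with no treatment. The organ of Corti, the spiral limbus and the lateral wall were dissected as 1 tissue without the otic capsule and cut into base, middle and apex, and RNA pooled from about 80 temporal bones was hybridized to Affymetrix Mouse Gene 1.0 ST arrays. The other 8 arrays hold the P0 middle and the P8 apex, middle and base, again 2 of each. The 3 pieces of 1 age and 1 set were cut from 1 pool of cochleae, so the 2 arrays of a group differ in their mice and dissection, and an apex and a base array of 1 set share both. In such pieces, fewer cells of a type and less RNA per cell cannot be told apart.

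The cochlea is laid out as a frequency map, with high tones detected at the base and low tones at the apex. Hair cells and supporting cells of the mouse leave the cell cycle before birth in a wave that runs from apex to base, while hair cells differentiate from base to apex, so that a newborn apex is less mature than its base. The lateral wall holds the stria vascularis, which secretes the potassium-rich endolymph, and the spiral limbus and the greater epithelial ridge secrete the tectorial membrane that covers the hair bundles.

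Levels are log2 signals from robust multiarray averaging (RMA), in which 1 unit is a doubling of signal. Of 16306 genes with a mean log2 level above 6 in at least 1 group, 66 were called higher in the P0 apex (0.405% of those tested) and 44 higher in the P0 base (0.270%), together 110 (0.675%). A call needed an adjusted p under 0.05 and a fold of at least 1.5 in a limma fit of all 12 arrays with the dissection set as a block. Differences are apex minus base on the log2 scale, given with the standard error (SE) of that fit and n = 2 arrays per group, and every adjusted p is the Benjamini-Hochberg value of limma. Over all tested genes the median difference was 0.03, and 57.2% of genes lay above 0. All 110 genes had the same direction in both sets. The calls were made from these same arrays, so this and the overlap counts that follow are a description. The groups did not overlap for 62 of the 66 apical genes and 41 of the 44 basal genes, while over all tested genes the apex arrays both lay above the base arrays in 12.0% and below them in 9.48%. These counts depend on the block: without it limma called 1 gene in the apex, Fst, and none in the base, against 97 and 91 when the fold threshold was kept and the p was left unadjusted, and the methods' t-test after Benjamini-Hochberg adjustment called none on either side (42 and 29 unadjusted). With each array centred on its median, the calls were 35 apical and 52 basal ones. With the pool of each age and set as the block, the calls were 119 and 112. Fits that lacked 1 of the 4 arrays made 5 to 21 apical and 2 to 12 basal calls, in which 4 to 13 of the 66 and 2 to 8 of the 44 genes were called again, the fewest on both sides without the second base array, and only Zpld1, Fst, Ndst3, Atp6v0a4 and Cyp3a13 were called in each of the 12 fits that lacked 1 array.

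The 4 promoters below belong to a pair of leading apical genes, which encode proteins with a zona pellucida domain, and to a pair of basal genes, which encode subunits of the vacuolar proton pump. They are RefSeq sequences of build GRCm38.p6, from 250 bases before to 50 after the start of the gene, 5′ to 3′, with every match to a searched motif in capitals.
Zpld1, chr16:55283188-55283487, minus strand: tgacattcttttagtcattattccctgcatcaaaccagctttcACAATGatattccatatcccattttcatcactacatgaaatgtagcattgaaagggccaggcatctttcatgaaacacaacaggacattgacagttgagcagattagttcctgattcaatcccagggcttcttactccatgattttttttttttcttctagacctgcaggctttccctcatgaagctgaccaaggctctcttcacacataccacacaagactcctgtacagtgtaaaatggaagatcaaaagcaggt
Tectb, chr19:55180476-55180775, plus strand: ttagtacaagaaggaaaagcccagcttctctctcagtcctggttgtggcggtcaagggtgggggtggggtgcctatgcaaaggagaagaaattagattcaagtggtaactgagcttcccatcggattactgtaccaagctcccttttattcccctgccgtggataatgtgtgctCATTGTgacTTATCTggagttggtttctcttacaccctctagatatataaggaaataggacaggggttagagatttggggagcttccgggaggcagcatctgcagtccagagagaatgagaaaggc
Atp6v0a4, chr6:38124537-38124836, minus strand: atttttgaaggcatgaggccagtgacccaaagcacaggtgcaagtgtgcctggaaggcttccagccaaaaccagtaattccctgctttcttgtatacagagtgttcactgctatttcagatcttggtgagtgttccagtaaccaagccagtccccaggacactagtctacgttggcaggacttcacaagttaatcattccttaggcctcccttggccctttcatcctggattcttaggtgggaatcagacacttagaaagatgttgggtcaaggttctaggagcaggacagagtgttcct
Atp6v1c2, chr12:17324681-17324980, minus strand: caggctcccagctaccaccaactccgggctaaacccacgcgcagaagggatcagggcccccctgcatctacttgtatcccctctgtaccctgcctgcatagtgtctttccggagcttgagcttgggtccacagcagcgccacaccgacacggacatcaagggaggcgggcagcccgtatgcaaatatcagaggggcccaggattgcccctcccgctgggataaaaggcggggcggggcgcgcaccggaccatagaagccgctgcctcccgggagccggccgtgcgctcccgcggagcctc

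The motifs searched, on both strands, were CATTGT of SOX factors, AGATAA of GATA factors, CTAATG of LIM homeodomain factors, CAGCTG of E-box factors, TGTTTAC of forkhead factors and the TATA box TATAAA. The Zpld1 window held 1 SOX match, the Tectb window 1 SOX and 1 GATA match, and the Atp6v0a4 and Atp6v1c2 windows held none of these letters. The table of promoters covered 47 of the 66 apical and 31 of the 44 basal genes, with 57 and 35 starts. A SOX match stood in 6 apical and 2 basal starts and in 12.6% of all 32851 promoters, and a GATA match in 10 apical and 3 basal starts and in 11.2% of all promoters. An E-box match stood in 10 apical and 6 basal starts and in 16.3% of all promoters. These matches are a description of letters and not binding sites.

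The 3 largest apical differences belonged to a zona pellucida domain protein, a signalling antagonist and a sulfotransferase. Zpld1, which encodes a membrane protein with a zona pellucida domain, read 8.35 and 8.13 on the apex arrays, against 6.27 and 6.12 on the base arrays. Every apex array lay far above every base array, and the difference was 2.04 ± 0.17 (adjusted p = 0.000778), a fold of 4.11. Tectb, which encodes beta-tectorin, a structural protein of the tectorial membrane, read 12.15 and 12.47 on the apex arrays, against 10.95 and 11.39 on the base arrays. Both apex arrays again stood above both base arrays, with a difference of 1.14 ± 0.14 (adjusted p = 0.00761). Otogl, for an otogelin-like glycoprotein of acellular gels, read 10.99 and 11.27 on the apex arrays, against 10.07 and 10.36 on the base arrays and differed by 0.92 ± 0.17 (adjusted p = 0.0452). Its relative Otog missed the fold threshold at 0.58 ± 0.11, although its adjusted p was 0.0467. Of the 11 tested genes on a list of tectorial membrane and zona pellucida domain proteins, 3 were called, all higher in the apex. Over all tested genes 0.405% were called higher in the apex. The list median was 0.07 beside 0.03 over all tested genes. Tecta, for alpha-tectorin, was not called at 0.40 ± 0.11 (adjusted p = 0.203), and neither was Otoa, for the attachment protein otoancorin, at -0.62 ± 0.12 (adjusted p = 0.0529).

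Activin signalling had a called member on each side. Activins are dimers of inhibin beta chains, and follistatin binds and neutralizes them. Fst, for follistatin, read 10.34 and 10.38 on the apex arrays, against 8.57 and 8.75 on the base arrays, so that both apex arrays stood more than 1.5 log2 units above both base arrays, and it differed by 1.70 ± 0.14 (adjusted p = 0.000778). Inhba, for the beta A chain of activin A, ran the other way with 7.33 and 7.95 on the apex arrays, against 7.98 and 9.06 on the base arrays. The lowest base array barely exceeded the highest apex array, but within each set the apex was lower, and the difference was -0.88 ± 0.14 (adjusted p = 0.0258). Sostdc1, which encodes an antagonist of BMP and Wnt signals, was lower in the apex as well, at -0.79 ± 0.13 (adjusted p = 0.0258). No other member of either list was called: of 14 antagonists 1 was higher and 1 lower in the apex (median -0.11), and of 24 ligands and receptors Inhba alone was called (median 0.11). Inhbb, for the beta B chain, stood at -0.05 ± 0.13 (adjusted p = 0.929), and the type II activin receptor gene Acvr2a at 0.55 ± 0.14 (adjusted p = 0.165). Wif1, for a secreted Wnt inhibitor, was higher in the apex at 0.93 ± 0.14 (adjusted p = 0.0184).

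**Figure D1:**
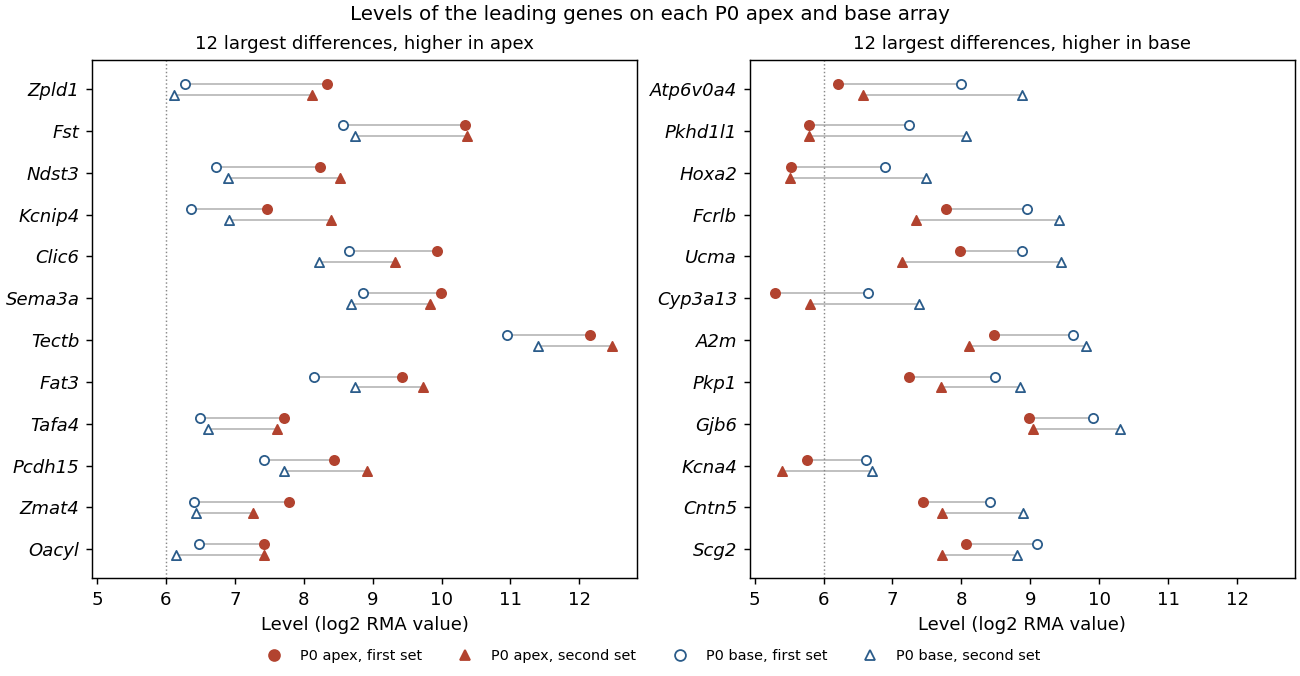
Level (log2 RMA value) of the 12 genes with the largest called difference in each direction on the 4 arrays, with filled red symbols for P0 apex, open blue symbols for P0 base, circles for the first and triangles for the second dissection set, a grey line joining the pieces of 1 pool, and a dotted line at the level of 6. For each gene plotted the apex and base symbols are separate, and the apical levels of Pkhd1l1, Hoxa2, Cyp3a13 and Kcna4 lie left of the dotted line.

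On a list of prosensory and supporting cell regulators, 5 of 25 tested members were called higher in the apex and none lower. Over all tested genes 0.405% were called higher in the apex. The list median was 0.30 and 23 of 25 members lay above 0, as did 57.2% of all tested genes. The list was drawn up with earlier results of these data known, so its counts are a description. Isl1, a LIM homeodomain factor of the sensory epithelium and of neurons, read 10.55 and 10.31 on the apex arrays, against 9.49 and 9.32 on the base arrays, well apart, and differed by 1.02 ± 0.14 (adjusted p = 0.0138). Rorb, an orphan nuclear receptor, read 6.98 and 6.998 on the apex arrays, against 5.77 and 6.08 on the base arrays. Its base mean lay under the level of 6, so its difference of 1.07 ± 0.13 (adjusted p = 0.00933) is read as a lower bound. That reading is used for every named gene with a compared mean under 6. The level is the filter of the study's methods, and no floor of detection was measured. Zpld1 in the base and Atp6v0a4 in the apex, with means of 6.20 and 6.39, lay only just above it. Hmga2, which encodes a chromatin protein of immature and dividing cells, read 8.72 and 8.75 on the apex arrays, against 7.86 and 7.89 on the base arrays and differed by 0.86 ± 0.12 (adjusted p = 0.0139). Six2, a homeodomain factor, was at 0.67 ± 0.11 (adjusted p = 0.0304), and Jag1, the Notch ligand of prosensory and supporting cells, at 0.65 ± 0.13 (adjusted p = 0.0487). Several well-known members were not called, with Sox2 at 0.41 ± 0.20 (adjusted p = 0.628), Lgr5 at -0.02 ± 0.16 (adjusted p = 0.983) and the Notch target Hes5 at 0.08 ± 0.16 (adjusted p = 0.901). Fgf10, a growth factor of the prosensory domain, had a large difference of 1.02 ± 0.26 that did not pass (adjusted p = 0.162).

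Both lists of hair cell genes had at least 1 called member, beside 0.405% of all tested genes called higher in the apex. Atoh1, the factor that starts hair cell differentiation, was the 1 called gene of 23 tested on the list of hair cell transcription and differentiation, at 0.73 ± 0.14 (adjusted p = 0.0467), and the list median was 0.04. Of 22 hair bundle genes, 2 were called, both higher in the apex. Pcdh15, for a tip link cadherin, read 8.44 and 8.92 on the apex arrays, against 7.43 and 7.72 on the base arrays and differed by 1.11 ± 0.12 (adjusted p = 0.00291), and Pls1, for an actin bundling plastin of stereocilia, differed by 0.72 ± 0.12 (adjusted p = 0.025). The median of that list was -0.03, and the genes of other transduction components were not called, with Cdh23 at 0.22 ± 0.15 (adjusted p = 0.704) and Tmc2 at -0.91 ± 0.19 (adjusted p = 0.0658). Pkhd1l1, which encodes a coat protein of hair bundles, was lower in the apex and is given with the basal genes. The summed signal of 8 hair cell markers was 3517 and 3220 on the apex arrays and 3540 and 3384 on the base arrays. The groups overlapped, although the apex was lower within each set.

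Of 34 tested axon guidance genes, 3 were called, all higher in the apex, beside 0.405% of all tested genes called higher there. Sema3a, for a secreted repellent of growing axons, read 9.999 and 9.83 on the apex arrays, against 8.86 and 8.68 on the base arrays, with the groups well apart, and differed by 1.15 ± 0.12 (adjusted p = 0.00279). Epha3, for an ephrin receptor, read 8.75 and 8.66 on the apex arrays, against 7.72 and 7.81 on the base arrays and differed by 0.94 ± 0.12 (adjusted p = 0.00981). Unc5c, for a repulsive netrin receptor, differed by 0.72 ± 0.13 (adjusted p = 0.0394). In the whole list, 28 of 34 lay above 0, as did 57.2% of all tested genes, and the median was 0.17. The list was drawn up with earlier results of these data known, so its counts are a description. Dcc, for the attractive netrin receptor, missed the fold threshold at 0.58 ± 0.11 with an adjusted p of 0.0467, and the Slit receptor gene Robo2 missed the p at 0.72 ± 0.14 (adjusted p = 0.0536). The netrin ligand gene Ntn1 lay at -0.54 ± 0.24 and was not called (adjusted p = 0.567). Of 9 spiral ganglion neuron markers none was called, 8 lay above 0 and their median was 0.32. Their summed signal was 5714 and 5978 in the apex and 4640 and 4371 in the base. A longer list of 19 tested spiral ganglion neuron genes, also without a call, had 14 above 0 and 5 under it. Its median was 0.17, with 0.03 in the first set and 0.27 in the second. The part of these neurons in the axon guidance values was not tested.

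The heparan and chondroitin sulfate list and the list of contactins and neuronal adhesion had single or mixed calls. Ndst3, for an enzyme that starts the sulfation of heparan sulfate chains, read 8.24 and 8.53 on the apex arrays, against 6.72 and 6.90 on the base arrays, and the lower apex array lay more than 1 log2 unit above the higher base array. It differed by 1.57 ± 0.14 (adjusted p = 0.00127) and was the 1 called gene of 19 tested on the heparan and chondroitin sulfate list. The median of that list was 0.12, and 17 members lay above 0, as did 57.2% of all tested genes. Chst2, for a sulfotransferase outside that list, differed by 0.69 ± 0.13 (adjusted p = 0.0452). Of 26 tested genes on the list of contactins and neuronal adhesion, 3 were called higher and 1 lower in the apex. Over all tested genes the shares were 0.405% and 0.270%. On that list 14 lay above 0 and 12 under it, and the median was 0.01. Among them the atypical cadherin gene Fat3 read 9.42 and 9.74 on the apex arrays, against 8.15 and 8.75 on the base arrays and differed by 1.13 ± 0.14 (adjusted p = 0.00969). The R-cadherin gene Cdh4 (0.78) and Lrrc55 (0.85) were the other members called higher in the apex. Lrrc55 stood on the list although it encodes an auxiliary subunit of BK channels rather than a contactin or cadherin. Outside the list, the protocadherin gene Pcdh11x (1.11) and the integrin gene Itgb6 (0.88) were called higher in the apex too. Cntn5, for a neuronal contactin, was the member that ran the other way, with 7.45 and 7.72 on the apex arrays, against 8.41 and 8.90 on the base arrays and a difference of -1.07 ± 0.19 (adjusted p = 0.0376).

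The remaining leading apical genes had varied roles. Kcnip4, for a partner of Kv4 potassium channels, read 7.47 and 8.40 on the apex arrays, against 6.37 and 6.92 on the base arrays and differed by 1.29 ± 0.22 (adjusted p = 0.0318). Its second apex array was much the highest of the 4. Clic6, of the intracellular chloride channel family, differed by 1.19 ± 0.16 (adjusted p = 0.0107), Tafa4, for a secreted chemokine-like protein, by 1.12 ± 0.16 (adjusted p = 0.0139) and Zmat4, for a zinc finger protein, by 1.11 ± 0.18 (adjusted p = 0.0262). Oacyl (1.11) and 2410124H12Rik (1.03) completed the 15 largest. Slco5a1, of the organic anion transporter family, was the 1 called gene of 16 on the thyroid hormone and organic anion transport list at 0.99 ± 0.19 (adjusted p = 0.0465). Trpa1, for an irritant-gated channel of sensory neurons, had a base mean under the level of 6 and a lower bound of 0.84 ± 0.16 (adjusted p = 0.0467).

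Muscle genes were uneven between the apex arrays, and so were bone and cartilage markers. Chrng, for the fetal gamma subunit of the muscle acetylcholine receptor, read 7.79 and 7.31 on the apex arrays, against 6.88 and 6.79 on the base arrays and was called at 0.72 ± 0.14 (adjusted p = 0.0467). The summed signal of 18 skeletal muscle markers was 5120 on the first and 2964 on the second apex array, against 2863 and 2634 on the base arrays. It was highest on the first apex array, and 15 of 18 markers lay above 0 with a median of 0.36, which was 0.62 in the first set and 0.06 in the second. Acta1, for skeletal muscle actin, read 9.96 and 7.47 on the apex arrays, against 8.03 and 7.39 on the base arrays and was not called (adjusted p = 0.676). The summed signal of 8 bone markers was 2526 and 1216 on the apex arrays, against 1904 and 1445 on the base arrays. For 12 cartilage markers it was 17222 and 11916 on the apex arrays, against 16634 and 13890 on the base arrays. Without the first apex array, 6 apical and 10 basal genes were called. The part of muscle in the Chrng value was not tested.

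Cell cycle genes lay slightly higher in the apex as a group, but limma called none of 29 tested members. At an unadjusted limma p under 0.05, 13 of them passed with the block and 3 without it. The list median was 0.30, and 26 of 29 were above 0, as were 57.2% of all tested genes. The median was 0.42 in the first set and 0.22 in the second. The largest differences were those of Cenpe, for a kinetochore motor, at 0.59 ± 0.15 (adjusted p = 0.162), and Kif11, for a spindle motor, at 0.55 ± 0.18 (adjusted p = 0.337). Mki67, the proliferation marker, stood at 0.46 ± 0.14 (adjusted p = 0.285). Lin28b, which encodes a blocker of let-7 processing, missed the threshold at 0.89 ± 0.18 (adjusted p = 0.0532). The neural progenitor factor Sox11 was called at 0.61 ± 0.12 (adjusted p = 0.0487), just inside the threshold.

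**Figure D2:**
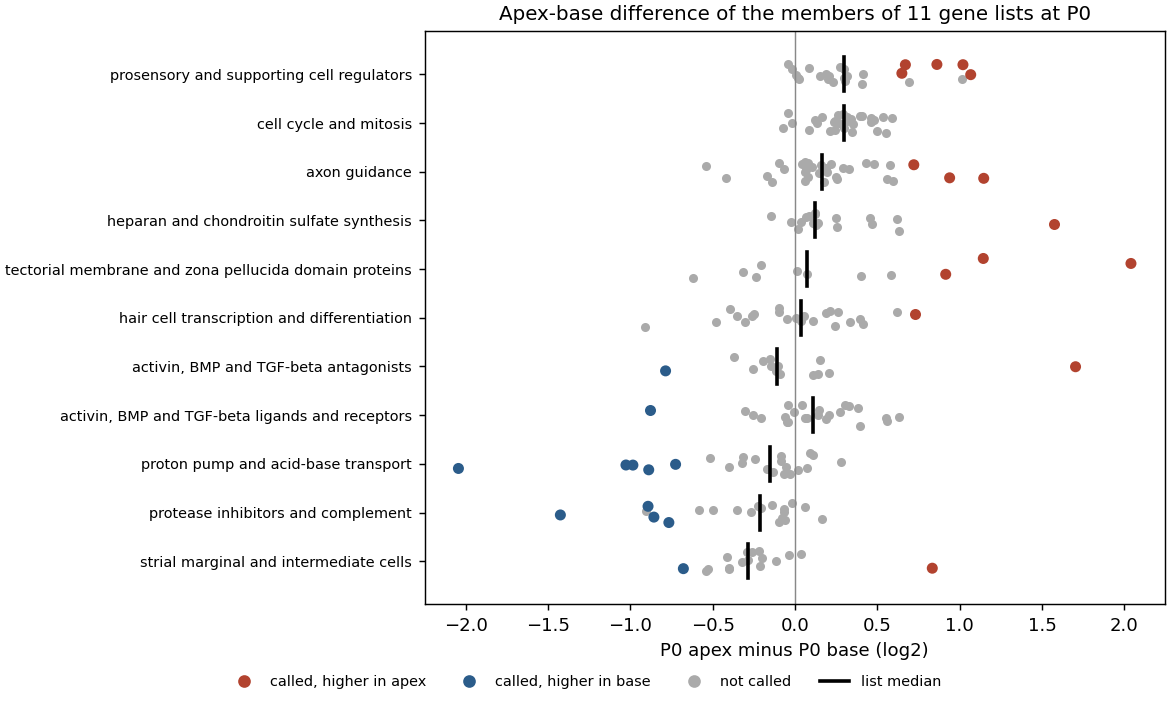
P0 apex minus P0 base (log2, x axis) for each tested member of 11 gene lists (y axis), with red dots for members called higher in the apex, blue dots for members called higher in the base, grey dots for members not called and a black bar at each list median. The prosensory list has 5 red dots and a median of 0.30, and the proton pump list has 5 blue dots and a median of -0.15.

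Among the lists, that of the proton pump and acid-base transport had the most genes called higher in the base. The vacuolar proton pump moves protons across membranes and exists in ubiquitous and in tissue-restricted forms, and loss of its a4 subunit in people causes renal tubular acidosis with deafness. Atp6v0a4, for that subunit, read 6.22 and 6.57 on the apex arrays, against 7.99 and 8.88 on the base arrays. Both apex arrays lay more than 1 log2 unit under both base arrays, and the difference was -2.04 ± 0.16 (adjusted p = 0.000778). Atp6v1c2, for the tissue-restricted C2 subunit of the same pump, read 7.41 and 7.35 on the apex arrays, against 8.38 and 8.35 on the base arrays and differed by -0.98 ± 0.16 (adjusted p = 0.0239). The genes of ubiquitous subunits differed little, with Atp6v0a1 at 9.76 and 9.78 in the apex and 9.65 and 9.85 in the base (0.02 ± 0.13, adjusted p = 0.977) and Atp6v1c1 at 0.09 ± 0.15 (adjusted p = 0.879). Atp6v1b1, for the tissue-restricted B1 subunit, was not called either, at -0.24 ± 0.14 (adjusted p = 0.676).

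The carbonic anhydrase genes Car12 and Car14, whose enzymes interconvert carbon dioxide and bicarbonate at the cell surface, followed the pump subunits. Car12 read 8.51 and 8.84 on the apex arrays, against 9.38 and 10.03 on the base arrays and differed by -1.03 ± 0.19 (adjusted p = 0.0452), and Car14 differed by -0.72 ± 0.13 (adjusted p = 0.0346). Wnk4, for a kinase that controls ion transport in epithelia, read 8.05 and 7.92 on the apex arrays, against 8.71 and 9.04 on the base arrays, with the groups apart, and differed by -0.89 ± 0.15 (adjusted p = 0.0261). In all, 5 of 22 tested members of the proton pump and acid-base list were called, all lower in the apex, beside 0.270% of all tested genes. On the list 17 of 22 lay under 0 and the median was -0.15. This list too was drawn up with earlier results of these data known, so its counts are a description. Slc26a4, for the anion exchanger pendrin, and its activator gene Foxi1 were not called, at -0.17 ± 0.12 (adjusted p = 0.713) and -0.14 ± 0.15 (adjusted p = 0.807). Tfcp2l1, for a transcription factor of transporting epithelia that stood outside the list, was lower in the apex at -0.86 ± 0.13 (adjusted p = 0.0185).

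Lateral wall and junction genes were called in the base in smaller numbers. Gjb6, for connexin 30, read 8.99 and 9.04 on the apex arrays, against 9.91 and 10.30 on the base arrays and differed by -1.09 ± 0.18 (adjusted p = 0.0295). Pkp1, for a plakophilin of desmosomes, read 7.24 and 7.71 on the apex arrays, against 8.49 and 8.86 on the base arrays, with no overlap, and differed by -1.20 ± 0.15 (adjusted p = 0.00761). Cldn11, for the claudin of strial basal cells, differed by -0.85 ± 0.11 (adjusted p = 0.0112). These were the 3 called genes of 20 on the junction list, beside 0.270% of all tested genes called higher in the base. The list median was 0.11. Kcne1, for the beta subunit of the strial potassium channel, read 8.20 and 9.30 on the apex arrays, against 8.88 and 9.98 on the base arrays. The first base array lay under the second apex array, so the groups overlapped, and the difference of -0.68 ± 0.12 (adjusted p = 0.0304) rests on the pairing within sets. Its partner Kcnq1 was not called at -0.29 ± 0.19 (adjusted p = 0.702). Of 17 strial genes, 15 lay under 0, with a median of -0.29. The summed signal of 8 lateral wall markers was 7877 and 9299 in the apex and 8154 and 10889 in the base. The groups overlapped, although the apex was lower within each set, and 7 of 8 lay under 0 with a median of -0.35. A list of 20 genes of spiral ligament fibrocytes and outer sulcus had no call, with 14 under 0, 6 above it and a median of -0.04. The part of the amount of lateral wall in the basal genes was not tested.

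Pigment cell genes did not move together. Tyrp1, for a melanin-synthesizing enzyme, was higher in the apex at 6.59 and 6.69 on the apex arrays, against 5.71 and 5.91 on the base arrays, a lower bound of 0.83 ± 0.12 (adjusted p = 0.0167) because its base mean lay under the level of 6. The other pigment genes Tyr and Dct lay at -0.54 ± 0.15 (adjusted p = 0.198) and -0.40 ± 0.11 (adjusted p = 0.203), and 6 of 8 melanocyte markers lay under 0 with a median of -0.31. Their summed signal was 3167 and 3200 in the apex and 3565 and 4491 in the base. Kitl, for the KIT ligand on which pigment cells depend, was higher in the apex at 0.85 ± 0.16 (adjusted p = 0.0467).

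Of 20 tested genes on a list of protease inhibitors and complement, 4 were called, all lower in the apex. Over all tested genes 0.270% were called higher in the base. On the list 18 lay under 0 with a median of -0.21, while 57.2% of all tested genes lay above 0. The list was drawn up with earlier results of these data known, so its counts are a description. A2m, for alpha-2-macroglobulin, a broad protease inhibitor, read 8.47 and 8.11 on the apex arrays, against 9.62 and 9.81 on the base arrays, well apart, and differed by -1.42 ± 0.20 (adjusted p = 0.0139). Spink5, for a serine protease inhibitor of epithelia, differed by -0.89 ± 0.15 (adjusted p = 0.032). Itih2, for a protein that links to hyaluronan, differed by -0.86 ± 0.14 (adjusted p = 0.0248), and Lbp, for a protein that binds bacterial lipopolysaccharide, by -0.77 ± 0.12 (adjusted p = 0.0204). Lbp stood on the list although it encodes neither a protease inhibitor nor a complement protein. The complement genes C1qa and C1qb were not called, at -0.02 (adjusted p = 0.987) and -0.07 (adjusted p = 0.925).

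The other large basal differences were those of single genes. Hoxa2, a homeobox gene that patterns the hindbrain and its neural crest, read 5.53 and 5.52 on the apex arrays, against 6.90 and 7.48 on the base arrays, so that it stood above the level of 6 in the base and under it in the apex, with a lower bound of -1.67 ± 0.21 (adjusted p = 0.00959). No other of the 12 tested genes of the Hox cluster and its cofactors was called, and Hoxb2 and Hoxb3 lay at -0.12 ± 0.16 (adjusted p = 0.857) and -0.34 ± 0.15 (adjusted p = 0.585). Pkhd1l1 read 5.79 and 5.80 on the apex arrays, against 7.23 and 8.06 on the base arrays, again under the level of 6 in the apex, with a lower bound of -1.85 ± 0.23 (adjusted p = 0.00761). Cyp3a13, for a cytochrome P450, had a lower bound of -1.47 ± 0.13 (adjusted p = 0.00125) and belongs to a family of similar genes that array probes may not separate. Fcrlb, for an Fc receptor-like protein, read 7.78 and 7.33 on the apex arrays, against 8.95 and 9.41 on the base arrays, with no overlap, and differed by -1.62 ± 0.20 (adjusted p = 0.00761).

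Ucma, for a matrix protein of cartilage, read 7.99 and 7.14 on the apex arrays, against 8.88 and 9.45 on the base arrays and differed by -1.60 ± 0.25 (adjusted p = 0.0209). Other cartilage markers did not share its difference: the median of 12 was 0.06, none of the other 11 was called, and Col2a1 lay at -0.20 ± 0.11 (adjusted p = 0.663). Among 24 potassium channel genes, Kcna4 and Kcnj16 were called, both lower in the apex, at a lower bound of -1.08 ± 0.17 (adjusted p = 0.0204) and at -0.81 ± 0.14 (adjusted p = 0.0304). They encode a voltage-gated channel that inactivates quickly and an inward rectifier subunit. Scg2, for a granin of secretory vesicles (-1.06), Fam216b (-1.04, a lower bound) and Strip2 (-1.02) completed the 15 largest. Ppp1r1b, for the phosphatase inhibitor DARPP-32, came next at -1.01. Mal, for a lipid raft protein of myelin, was the 1 called gene of 11 Schwann cell markers at -0.84 ± 0.16 (adjusted p = 0.0465), and their median was -0.05.

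The threshold cut through a continuous range. Igdcc3 in the apex (0.59) and Fxyd6 in the base (-0.60) had the smallest called differences. Just outside, Dcc and Otog passed the p with a fold under 1.5, and 162 genes had a fold of at least 1.5 with an adjusted p of 0.05 or more, 11 of them with a fold of at least 2.

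The P0 middle arrays do not enter the P0 difference between apex and base. For all 66 apical genes the middle mean lay between the apex and base means, as it did for 41 of the 44 basal genes. Measured from the base, the middle had covered a median of 51.3% of the step to the apex in the apical genes, and it lay nearer the apex in 35 and nearer the base in 31. In the basal genes the median was 28.2%, and the middle lay nearer the base in 35 and nearer the apex in 9. Since the base and apex arrays enter these shares, they are a description. Single genes differed widely. Atp6v0a4 read 7.52 and 8.38 on the middle arrays, still close to the base, and Wnk4 read 8.72 and 9.01, level with the base. Hoxa2 read 5.63 and 5.78, already at the apical level and under 6. Among the apical genes, Hmga2 at 7.91 and 8.08 was near the base, while Tectb at 11.84 and 12.36 was near the apex.

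**Figure D3:**
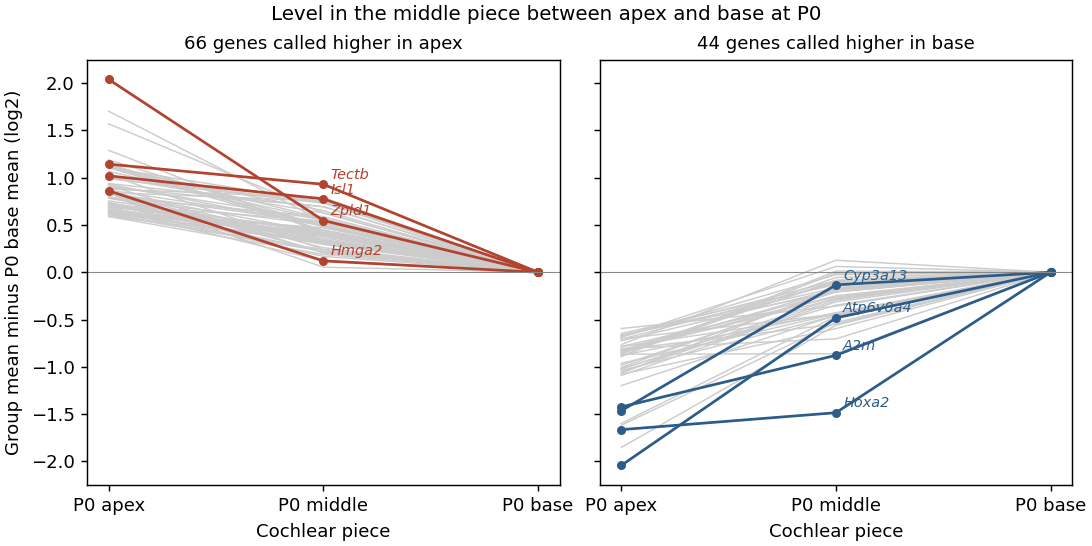
Group mean minus the P0 base mean (log2, y axis) in the P0 apex, middle and base (x axis) for the 66 genes called higher in the apex (left) and the 44 called higher in the base (right), 1 grey line per gene with 4 named genes in colour on each side. Hoxa2 is already low in the middle, whereas Atp6v0a4 and Cyp3a13 stay near the base there, and Hmga2 lies near the base level in the middle.

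The P8 arrays came from other pups. Their levels do not enter the P0 difference, but they share the fit's estimate of spread with it, and without a P8 base array 27 apical and 12 basal genes were called at P0. Of the 66 apical genes, 56 had a positive difference at P8, 26 were called higher in the P8 apex (39.4%, beside 1.13% of all tested genes) and none was called higher in the P8 base. Of the 44 basal genes, 33 had a negative difference at P8 and 5 were called higher in the P8 base (11.4%, beside 0.442% of all tested genes), while 2 were called higher in the P8 apex. The 26 included Fst at 2.09 ± 0.14 (adjusted p = 0.000131), Zpld1 at 1.58 ± 0.17 (adjusted p = 0.000923), Isl1 at 1.77 ± 0.14 (adjusted p = 0.000245) and Prkcq, for protein kinase C theta, at 1.80 ± 0.14 (adjusted p = 0.000208). Those called in the base at both ages were Hoxa2 at a lower bound of -1.82 ± 0.21 (adjusted p = 0.00159), A2m at -1.32 ± 0.20 (adjusted p = 0.00794), Kcna4 at -0.85, Cyp3a13 at -0.66 and Ppp1r1b at -0.59. Among the proton pump and acid-base genes, limma called none of 22 at P8. At an unadjusted limma p under 0.05, 7 of them passed at P8 with the block and 4 without it. Their list median was -0.11 at P8, and the Atp6v1c2 difference was 0.07 ± 0.16 (adjusted p = 0.913).

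**Figure D4:**
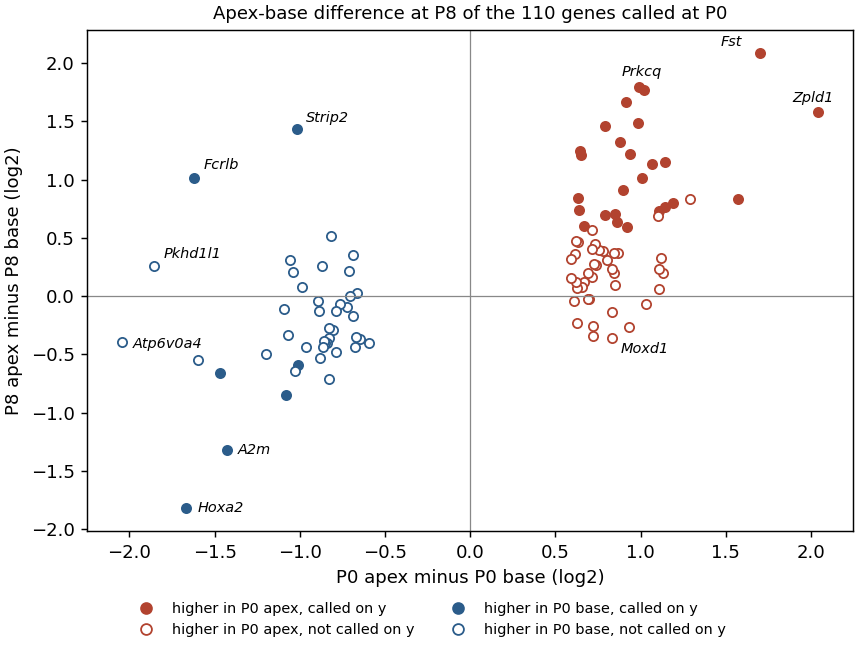
P8 apex minus P8 base (log2, y axis) against P0 apex minus P0 base (log2, x axis) for the 110 genes called at P0, red where higher in the P0 apex and blue where higher in the P0 base, filled where also called at P8 in either direction. In red, 26 of 66 are filled and all of these lie above 0, and in blue 7 of 44 are filled, of which Fcrlb and Strip2 lie above 0.

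The test of the change itself, the P8 difference minus the P0 difference with an adjusted p under 0.05 and no fold threshold, passed for 29 of all tested genes (0.178%), of which 8 were among the 110. Since the 110 were chosen for a large P0 difference, which is part of this change, the count is a description. Fcrlb and Strip2 turned round. Fcrlb read 10.19 and 10.36 in the P8 apex, against 9.44 and 9.08 in the P8 base, higher in the apex at both sets, and its difference was 1.01 ± 0.20 (adjusted p = 0.0256), a change of 2.63 ± 0.28 (adjusted p = 0.011). Strip2, for a protein of the striatin complex, read 9.20 and 9.54 in the P8 apex, against 7.75 and 8.13 in the P8 base and changed by 2.45 ± 0.27 (adjusted p = 0.011). Atp6v0a4 read 8.71 and 9.08 in the P8 apex, against 9.13 and 9.45 in the P8 base, above the P0 apex arrays in both pieces, and its difference was -0.40 ± 0.16 (adjusted p = 0.362), a change of 1.65 ± 0.23 (adjusted p = 0.0246).

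The middle piece also gave the change with age in arrays whose levels do not enter the P0 difference. Of the 66 apical genes, 38 were lower in the P8 middle than in the P0 middle (57.6%, beside 4.91% of all tested genes) and 7 were higher (10.6%, beside 6.16%). The 44 basal genes ran the other way, with 22 of 44 higher in the P8 middle (beside 6.16%) and 6 lower (13.6%, beside 4.91%). The median change was -0.63 in the apical and 0.60 in the basal genes, beside -0.01 over all tested genes. Cdh4 had the largest apical decrease, with 7.66 and 7.53 in the P8 middle, against 9.72 and 9.92 in the P0 middle, a change of -2.22 ± 0.14 (adjusted p = 4.44e-06), and Isl1, Atoh1, Jag1, Pcdh15, Sox11 and Hmga2 were lower at P8 as well. Ucma had the largest increase of the basal genes, with 12.61 and 12.36 in the P8 middle, against 8.64 and 8.75 in the P0 middle, a change of 3.79 ± 0.25 (adjusted p = 6.72e-06), and Kcnj16, Gjb6, A2m, Car12, Car14, Kcne1 and both called proton pump genes were higher at P8. Exceptions were Rorb, at 2.15 ± 0.13 (adjusted p = 4.96e-06), and Tectb, at 0.79 ± 0.14 (adjusted p = 0.0027), which were apical and higher at P8, and Cntn5, at -2.36 ± 0.19 (adjusted p = 2.43e-05), and Spink5, at a lower bound of -1.67 ± 0.15 (adjusted p = 5.36e-05), which were basal and lower at P8. Zpld1 and Fst were not called for age in the middle, at -0.15 ± 0.17 (adjusted p = 0.6) and -0.36 ± 0.14 (adjusted p = 0.103).

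**Figure D5:**
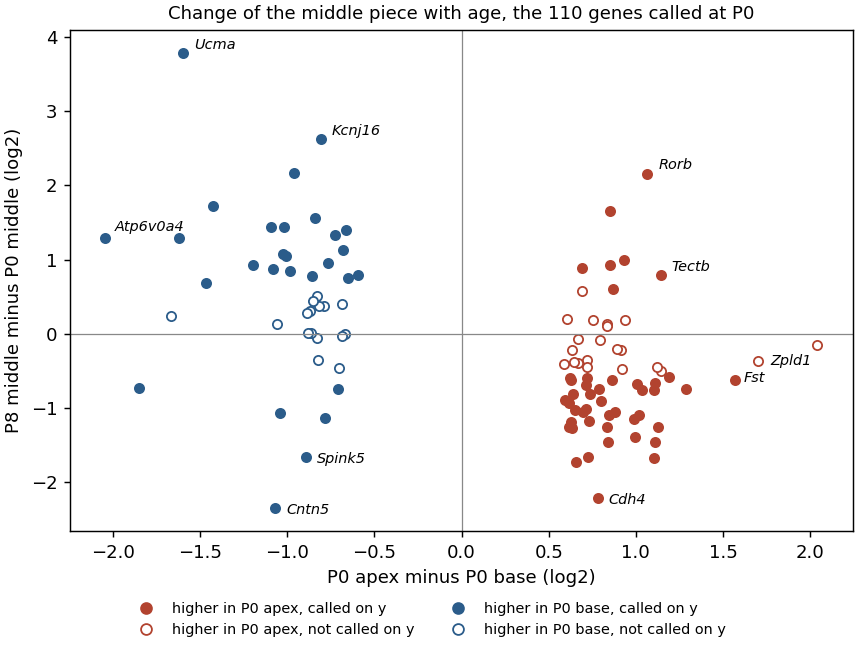
P8 middle minus P0 middle (log2, y axis) against P0 apex minus P0 base (log2, x axis) for the same 110 genes, red where higher in the P0 apex and blue where higher in the P0 base, filled where the change with age was called. Of the red points 38 are filled below 0 and 7 above, and of the blue points 22 are filled above 0 and 6 below.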

How the data were processed

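RNA of cochlear pieces was measured on 12 arrays, 1 for each piece of each age and set. The authors extracted probe signals and estimated expression by RMA, and the deposited values are log2 signals. The build used by the authors is not given in the sources used here, nor whether both sets went through 1 run. Of 35556 entries, 21789 carried 1 gene symbol, 1621 several and 12146 none, and entries with several or none were left out. A gene with several entries was represented by the entry with the highest mean over the 12 arrays. The 16306 genes with a mean above 6 in at least 1 group were tested, the level named in the study's methods, and 16253 matched RefSeq by Entrez identifier. Levels are relative and the number of arrays limits the precision: the SD between the 2 arrays had a median of 0.19 in the P0 apex and 0.18 in the P0 base.

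The comparisons used limma 3.58.1 (R 4.3.3; lmFit, eBayes), with 6 group means and the dissection set as a block, in 1 fit of all 12 arrays. Contrasted were the apex and the base of each age, the change of that difference, and P8 over P0 in the middle. P-values were adjusted over all tested genes by the Benjamini-Hochberg method. The block is the year tag in the array titles, read here as the study's dissection set, which no title names. A batch of array processing that goes with the year cannot be told apart from the set. By the study's methods the pieces of 1 age and set share a pool, and that finer block was run as an alternative. Deviations of same-set arrays correlated at 0.543 to 0.916 over 15 pairs of groups (0.698 for P0 apex and base). Alternatives without the block, with the pool as block, with other filters and scalings, with the methods' unpaired t-test and without each array were run. Called genes named with values are the 15 largest in each direction, called members of the lists and, where a list had none, its largest differences; members shown for contrast and called genes outside the lists were added after their values were seen. The comparison and the gene lists were chosen with earlier results of these data known, so counts of called list members are a description. They stand beside 0.405% of all tested genes called higher in the P0 apex and 0.270% in the P0 base. Other steps ran in Python 3.11.15, pandas 2.3.3, numpy 2.4.6 and matplotlib 3.10.9.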

Additional observations from a re-analysis of the deposited data

Results flagged for a closer look

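For 8 of the 110 genes called at P0, the apex-base difference at P8 differed from that at P0 in a test of the change itself (limma, adjusted p under 0.05). The change was 2.63 ± 0.28 for Fcrlb (adjusted p = 0.011), 2.45 ± 0.27 for Strip2 (adjusted p = 0.011), 2.12 ± 0.32 for Pkhd1l1 (adjusted p = 0.0366), 1.65 ± 0.23 for Atp6v0a4 (adjusted p = 0.0246) and 1.33 ± 0.21 for Oprk1, the kappa opioid receptor gene (adjusted p = 0.0465), all of which were lower in the P0 apex than in the P0 base. It was -1.20 ± 0.20 for Wif1 (adjusted p = 0.0473), -1.19 ± 0.17 for Moxd1 (adjusted p = 0.0245) and -1.10 ± 0.17 for 2410124H12Rik (adjusted p = 0.0368), all of which were higher in the P0 apex than in the P0 base. Pkhd1l1 read 6.51 and 6.43 in the P8 apex, against 6.13 and 6.29 in the P8 base, and Moxd1, for a monooxygenase-like protein, read 9.39 and 10.09 in the P8 apex, against 9.87 and 10.33 in the P8 base. The P0 apex mean of Pkhd1l1 and the P0 apex and P8 base means of Oprk1 lay under the level of 6, so these changes are lower bounds. 2410124H12Rik lay under that level in both P8 apex and P8 base, so no P8 difference is read for it and the size of its change is not settled. The genes were chosen for their P0 difference, which enters the change, and groups of 2 arrays were too small for a test of outlying arrays.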

How the results depend on the processing

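With 2 pools per group, the count of calls depended on how the shared pool was treated. Without the replicate block, 1 gene was called in the apex and 0 in the base, and 0 changed between the ages. With the replicate block set by pool (age and set), 119 and 112 were called and 151 changed between the ages, and with the P0 arrays only, still with the block, 124 and 111. All 66 apical and all 44 basal genes were among the calls of both these fits. The unpaired t-test named in the methods, recomputed here, gave 42 and 29 genes unadjusted and 0 and 0 after Benjamini-Hochberg adjustment. In the main fit a fold of at least 2 left 17 and 16. Arrays centred on the median gave 35 and 52, so that the apical share of calls was 40.2%, beside 60.0%, and quantile normalization gave 54 and 52, and the centring moved the median difference by 0.06. Leaving out 1 array of the 12 gave 5 to 51 apical calls, 2 to 41 basal calls and 1 to 29 changes between the ages. The calls were 5 and 9 without the first P0 base array, 5 and 2 without the second, 6 and 10 without the first P0 apex array, 21 and 12 without the second, 37 and 29 without a P0 middle array, 27 and 12 without a P8 base array and 39 and 31 without a P8 apex array. The lone array of such a group is assumed to vary like the others. A trend and robust prior, both filters, all entries of a gene and no fold threshold kept each count within 1.5 times. For 65 named genes under 9 alternatives and 12 fits without an array, 899 of 1361 values kept the call, 462 kept the direction only and 0 turned round. The medians of 11 of 22 lists changed sign under some scaling, filter or left-out P0 array, among them the antagonist, hair cell, bundle, junction, Hox, potassium channel and contactin lists, and the prosensory, axon guidance, cell cycle, sulfate, tectorial, ligand, proton pump, protease inhibitor and strial medians did not. The cause of these changes was not tested. The change between the ages cannot be had from the P0 arrays alone.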
